A study of Mus musculus with 13 samples.

Results

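Zero-insert clonotypes were the functional T cell receptor (TCR) α-chain clonotypes of rescued regulatory T (Treg) cells in which no base lay between the stretch matched to the V segment and the stretch matched to the J segment. A clonotype was 1 row of a sample's table, with its own V and J segment and CDR3 nucleotides, and a functional one had a CDR3 that translated without a stop codon or a frameshift. Members were taken by the V end and J start positions in the clonotype tables, with the J match starting at the base after the V match or earlier. The rule found 24214 of 78521 functional clonotypes (30.8%) over 13 samples, against 49069 with 1 to 5 bases between V and J, 5184 with more than 5 and 54 with no V end. The cells came from the spleen and lymph nodes of male C57BL/6 mice of genotype Foxp3LSL/y Cd4creERT2, in which a removable stop cassette silences Foxp3 and the tamoxifen-activated Cre is driven from the Cd4 locus, so that recombination is not limited to Treg cells. At postnatal day 14 all mice were given the tamoxifen metabolite 4-hydroxytamoxifen (4-OHT), and GFP-positive, Thy1.1-negative CD4+ cells were sorted 1.5 months (n = 2, aged 8 weeks), 3 months (n = 4, aged 3.5 months), 5 months (n = 2, aged 5.5 months) or 7 months (n = 5, aged 7.5 months) later. Age and time since 4-OHT therefore cannot be told apart, and no sample without 4-OHT or from Foxp3-sufficient mice was analysed here. The labels do not say that the samples of a time point came from separate animals, so the p-values measure only the spread between these samples.

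The α chain is assembled in the thymus, where the RAG recombinase cuts at a V and a J segment, the ends are trimmed, and the enzyme terminal deoxynucleotidyl transferase (TdT) can add bases that neither segment encodes before the ends are joined. TdT is scarce in the fetal and newborn mouse thymus, and junctions without added bases are known as a feature of T cells made early in life, while adult thymocytes make them too. Because such junctions are written in the germline, different animals can make the same one, and CDR3 sequences found in many individuals are called public.

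A zero-insert junction is easiest to see in its nucleotide sequence. Those given here are the 6 zero-insert clonotypes that were found in the most samples, read 5′ to 3′ from the first to the last codon of CDR3, with the bases from the start of the J match in capitals.
TRAV7D-2 and TRAJ12: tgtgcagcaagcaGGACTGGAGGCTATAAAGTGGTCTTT
TRAV14D-1 and TRAJ13: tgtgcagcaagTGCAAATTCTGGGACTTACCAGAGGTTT
TRAV14D-1 and TRAJ22: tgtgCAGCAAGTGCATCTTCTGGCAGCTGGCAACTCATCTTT
TRAV14D-1 and TRAJ15: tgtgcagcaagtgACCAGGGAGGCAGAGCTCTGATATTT
TRAV7D-2 and TRAJ22: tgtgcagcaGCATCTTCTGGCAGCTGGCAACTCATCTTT
TRAV7-4 and TRAJ12: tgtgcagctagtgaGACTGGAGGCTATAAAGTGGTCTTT

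The first was found in 12 of 13 samples, the next 2 in 11 and the other 3 in 10. Leaving out findings with a count 100 times higher or more in another sample, which could be carry-over between libraries, made this 11 for the first and 9 for the fifth and left the other 4 as they were. In the first and the fourth, V and J matches met with no base to spare, and the sixth had 1 base that fit both segments. In the second the deposited matches overlapped by 4 bases and in the third by 18, although the exact germline matches of both met without overlap, at 13 V and 26 J bases in the second and 13 V and 29 J bases in the third. Only the fifth held 1 base that neither germline segment gave exactly. For comparison, the 3 clonotypes with 1 to 5 inserted bases that were found in the most samples, in 10, 9 and 8 samples, are shown in the same way.
TRAV7D-2 and TRAJ27, 1 inserted base: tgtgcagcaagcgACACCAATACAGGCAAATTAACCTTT
TRAV7D-2 and TRAJ30, 2 inserted bases: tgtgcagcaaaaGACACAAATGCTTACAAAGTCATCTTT
TRAV4D-4 and TRAJ12, 1 inserted base: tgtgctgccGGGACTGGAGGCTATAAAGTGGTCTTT

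The junctions were checked against the germline V and J segments of GRCm38 (GENCODE M21), since the label rests on where the aligner placed the ends of V and J. Of the 24214 members, 7189 had V and J matches that met exactly, and in 17025 (70.3%) the matches overlapped. An exact match of the CDR3 to the V family from its start and to the J segment from its end covered the whole CDR3 in 8878 members (36.7%), and in 12546 (51.8%) once up to 4 palindromic bases per end were allowed, which form when the hairpin at a cut end is opened off centre. Among clonotypes with 1 to 5 inserted bases these shares were 0.444% and 1.43%. The deposited V match ran past the exact one in 49.4% of members and the deposited J match in 48.8%. The largest member that the germline did not give exactly shows this, with its unmatched bases in capitals.
TRAV4N-4 and TRAJ17: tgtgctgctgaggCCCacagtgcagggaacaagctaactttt
It took 1.63% of functional counts in the first 7-month sample. Its deposited V match spanned 20 bases and its exact match 13, so that 3 bases stayed unmatched. The members are therefore called zero-insert in the sense of the deposited positions, and the exact germline match is given as an alternative. In the 8878 exactly matched members, 55.4% ± 2.12 (SD, n = 13) shared no base between V and J, 29.1% ± 1.96 shared 1 base, 10.2% ± 1.14 shared 2 and the rest shared 3 to 5.

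Both classes also held small clonotypes that differed by 1 base from another of the same sample with at least 5 times the count. Such 1-base neighbours made up 12.8% of the members and 10.4% of clonotypes with 1 to 5 inserted bases, and 52.8% of those among the members and 63.5% of those with 1 to 5 inserted bases changed T to G. The most abundant was a TRAV12-1 and TRAJ13 junction in the first 3-month sample, given after its larger partner with the changed base in capitals (T25G, counted from 1 at the first base of CDR3).
larger partner, 4569 counts: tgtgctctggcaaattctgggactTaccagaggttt
1-base neighbour, 852 counts: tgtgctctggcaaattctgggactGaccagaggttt
Their share differed by J gene, and over all functional clonotypes it was 34.9% in TRAJ13, 40.6% in TRAJ15, 39.7% in TRAJ21 and 32.5% in TRAJ35. Their part in the results was tested only by removing them, which is given where it changes a result.

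Totals of functional counts ran from 477052 to 882170 per sample, and whether these are reads or molecules is not stated in the sources used here. A share of 3 counts, taken as a reference floor for low values, was 3.40e-04% in the deepest sample and 6.29e-04% in the shallowest. This floor removed no clonotypes, and any count was enough for a sequence to be called found in a sample. Chains that mark other cells in the sort were rare among the members. The invariant natural killer T cell chain (TRAV11 joined to TRAJ18 with 15 residues) gave 4 members and at most 0.0403% of counts in a sample, the mucosal-associated invariant T cell chain (TRAV1 joined to TRAJ33 with 12 residues) gave none, and rows with a TCRδ segment gave 4 and at most 0.00292%. One library stood apart in its overlap with others: the zero-insert CDR3 amino-acid sequences of the fourth 3-month sample had a Jaccard index of 17.5% with the first 1.5-month sample and of 16.5% with the first 5-month sample, where the third highest of all pairs was 14.5%. The main results on sharing are therefore given also without possible carry-over, meaning clonotypes whose count in another library was 100 times higher or more. These were 764 members (3.16%).

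Zero-insert clonotypes made up a similar share of the repertoire in every sample and at every time point. The share of functional clonotypes was 30.3% and 31.9% at 1.5 months, 30.6%, 29.1%, 31.6% and 29.3% at 3 months, 30.9% and 32.3% at 5 months, and 30.4%, 30.9%, 30.6%, 31.9% and 31.5% at 7 months. The groups overlapped at every time point, and the 95% Wilson intervals, which cover counting error only, ran from 28.0 to 30.3% in the lowest sample and from 31.0 to 33.6% in the highest. The means were 31.1% ± 1.14 (SD, n = 2), 30.2% ± 1.18 (n = 4), 31.6% ± 0.941 (n = 2) and 31.1% ± 0.629 (n = 5). The difference from 1.5 months was -0.892, 0.531 and 0.00470 percentage points at 3, 5 and 7 months (exact permutation test, p = 0.547, 0.887 and 1). When only junctions of exactly 0 bases counted, the 3-month share was 0.829 points lower (exact permutation p = 0.0295).

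Measured by counts rather than by clonotypes, zero-insert junctions took more of the repertoire, 35.1% ± 1.71 (SD, n = 13). Their share of functional counts was 37.5% and 36.4% at 1.5 months, 37.4%, 32.2%, 36.3% and 32.9% at 3 months, 35.3% and 36.1% at 5 months, and 34.9%, 34.1%, 34.3%, 35.5% and 33.0% at 7 months. Both 1.5-month samples lay above all 5- and 7-month samples, while the 3-month samples spread over the whole range. The 7-month mean was 2.58 points below that of 1.5 months (exact permutation p = 0.194), the 5-month mean 1.23 points below (p = 0.766) and the 3-month mean 2.24 points below (p = 0.306). With exactly 0 bases the 3-month difference was -3.13 points (exact permutation p = 0.0478), and with only the 1.5- and 7-month samples permuted the 7-month difference had p = 0.0476, the smallest that those 21 arrangements can give. The correlation of the share of counts with months gave Pearson's r = -0.381 (permutation p = 0.196, adjusted p = 0.457 over 7 trends). Without the second 3-month sample r was -0.583 (unadjusted permutation p = 0.0486).

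**Figure D1:**
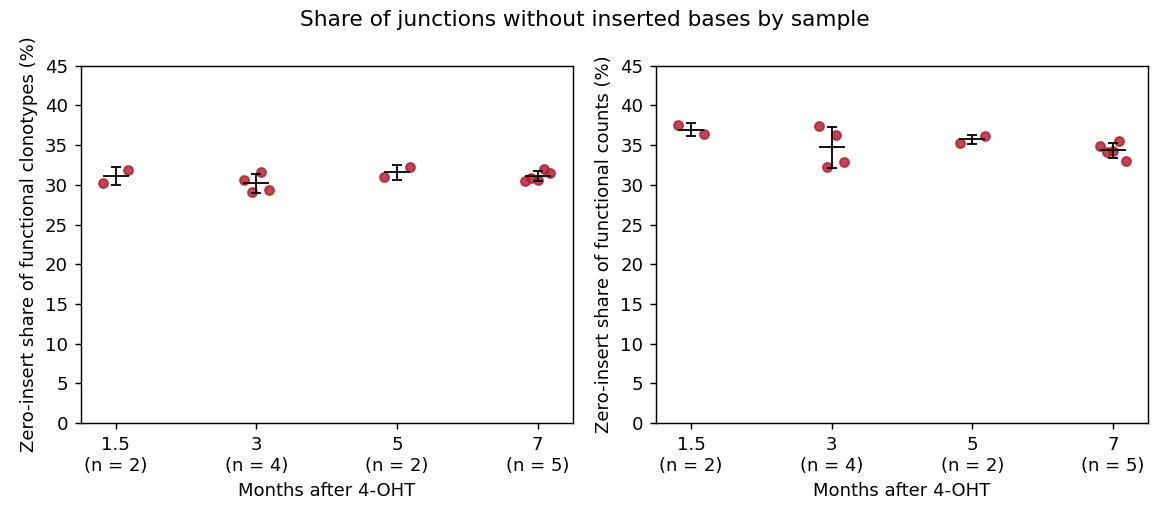
Zero-insert share of functional clonotypes (left, %) and of functional counts (right, %) against months after 4-OHT. Each point is 1 sample, and bars show the mean ± SD. The clonotype share stayed between 29.1% and 32.3% in all 13 samples, and the count share ran from 32.2% to 37.5%.

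Zero-insert clonotypes were larger than those with 1 to 5 inserted bases in all 13 samples. Clone size here means the count of a clonotype, which is set by its α chain alone. Cells of different origin with the same α chain were therefore counted together, and their part in the difference was not tested. The mean count of zero-insert clonotypes was 1.19-fold higher (difference of log2 means 0.25 ± 0.10, SD, n = 13), their median count 1.15-fold higher and their mean log2 count 0.30 ± 0.09 higher, each with p = 2.44e-04 in a two-sided exact sign-flip permutation test over the 13 within-sample differences, the smallest p that it can give (Benjamini-Hochberg adjusted over 12 measures, 3.26e-04). Those 12 measures include CDR3 length and the V and J bases kept, which are given below as descriptions only. Clonotypes above 0.1% of functional counts made up 2.04% ± 0.558 of zero-insert clonotypes and 1.47% ± 0.548 of those with 1 to 5 bases, and the share was higher in 12 of 13 samples (exact sign-flip permutation p = 4.88e-04). Of the 1230 clonotypes above 0.1%, 480 were zero-insert, which is 39.6% ± 5.46 per sample, and the 100 largest clonotypes of a sample held between 29 and 51. The unevenness of clone sizes (Gini coefficient, 0 for equal sizes) was 0.635 ± 0.0438 and 0.632 ± 0.0504 (exact sign-flip permutation p = 0.495). It was higher in zero-insert clonotypes by 0.0198 when single-count clonotypes were left out (exact permutation p = 0.00928). Against clonotypes with exactly 1 inserted base, the difference in mean log2 count was 0.10 (exact permutation p = 0.0176). It was 0.14 with a minimum of 2 counts, 0.11 with a minimum of 10 counts and 0.51 with the exact germline match, and the difference in log2 median count, 0.20, was 0.11 with a minimum of 2 counts and 0.10 with a minimum of 10 (exact permutation p at most 4.88e-04 in each). With the exact germline match the difference in the share above 0.1% of counts was 1.1 percentage points against 0.562.

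The largest zero-insert clonotype of each time point was abundant in 1 sample and took at most 0.00828% of functional counts in any other. They are shown as the largest member of each time point, again with the bases from the start of the J match in capitals.
1.5 months, TRAV3-3 and TRAJ23: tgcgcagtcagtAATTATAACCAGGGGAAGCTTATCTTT
3 months, TRAV14-3 and TRAJ42: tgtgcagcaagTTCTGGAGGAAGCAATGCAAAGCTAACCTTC
5 months, TRAV4-4-DV10 and TRAJ34: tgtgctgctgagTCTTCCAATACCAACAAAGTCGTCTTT
7 months, TRAV15-2-DV6-2 and TRAJ37: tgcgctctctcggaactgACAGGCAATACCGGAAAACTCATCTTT
All 4 were given whole by the germline. The 1.5-month clonotype took 1.79% of functional counts in the first sample (95% Wilson interval 1.75 to 1.82%) and was found in 3 samples in all, the 3-month one took 1.36% in the first sample and was found in 2, and the 5-month one took 1.68% in the first sample and was found in no other. The 7-month one took 4.59% in the fifth sample (95% Wilson interval 4.54 to 4.65%), the largest share of any member, and was found in 7 samples, at no more than 0.00201% in the other 6. Every finding of these 4 clonotypes outside their main sample falls under possible carry-over, and without it each was found in 1 sample.

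The excess in clone size was smaller in the later samples, without passing the test. The ratio of the mean count of zero-insert clonotypes to that of clonotypes with 1 to 5 bases was 1.37 and 1.22 at 1.5 months, 1.34, 1.14, 1.21 and 1.16 at 3 months, 1.2 and 1.16 at 5 months, and 1.21, 1.13, 1.16, 1.14 and 1.05 at 7 months. All 7-month samples lay below both 1.5-month samples, although the highest of them was close to the second 1.5-month sample. On the log2 scale the 7-month mean was lower by 0.18 (fell by 0.18; exact permutation p = 0.0578, adjusted p = 0.606 over 21 comparisons). The p dropped to 0.0250 without the first 3-month sample, to 0.0462 without the second 1.5-month sample and to 0.0421 without the first 7-month sample, and it was 0.330 without the first 1.5-month sample, with a difference of -0.10. The correlation of the log2 ratio with months gave Pearson's r = -0.636 (p = 0.0165, adjusted p = 0.115 over 7 trends, 100000 permutations) and Spearman's rho = -0.641 (permutation p = 0.0221, adjusted p = 0.154). When both 1.5-month samples, the farthest from the median month, were left out, r was -0.494 (permutation p = 0.118). The unadjusted p was 0.0731 without the first 1.5-month sample, 0.178 with junctions of exactly 0 bases and 0.0539 with the exact germline match.

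**Figure D2:**
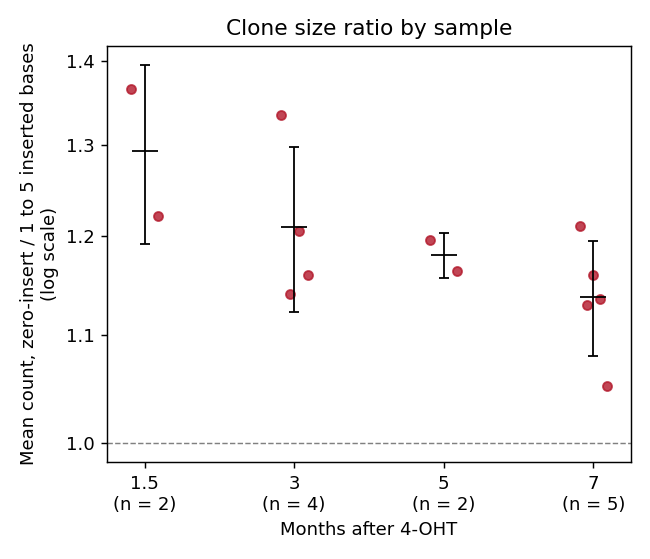
Ratio of the mean count of zero-insert clonotypes to that of clonotypes with 1 to 5 inserted bases (log axis) against months after 4-OHT. Each point is 1 sample, bars show the mean ± SD and the dashed line marks equal size. All samples lie above 1, from 1.05 to 1.37, and the 5 samples of 7 months lie between 1.05 and 1.21.

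Zero-insert CDR3s were shorter than those with 1 to 5 inserted bases. Their mean length was 13.24 ± 0.0274 residues (SD, n = 13) against 13.55 ± 0.0298, a difference of -0.305 ± 0.0367 residues with the same direction in 13 of 13 samples. Against clonotypes with exactly 1 inserted base the difference was -0.0598 residues, and with the exact germline match, against 1 to 5 unmatched bases, it was -0.618 residues. The most frequent length was 13 residues in zero-insert clonotypes (33.9% ± 1.35 against 29.9% ± 1.03) and 14 residues in the others (32.0% ± 0.789 against 27.1% ± 1.15 in zero-insert clonotypes). The V match covered 13.7 ± 0.0768 bases against 11.8 ± 0.0563 and the J match 28.5 ± 0.0900 against 26.2 ± 0.0559. All these lengths are descriptions only, since the inserted bases that set the classes are part of the CDR3. The V end and J start that chose the members also give the V and J lengths, and overlapping matches count the shared bases for both segments. The spread of lengths within a sample did not differ detectably (SD 1.27 in both classes, exact permutation p = 0.715).

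Over time the length of zero-insert CDR3s hardly moved. It lay between 13.20 and 13.31 residues in all 13 samples, and the differences from 1.5 months were at most 0.00653 residues (exact permutation p from 0.991 to 1). With junctions of exactly 0 bases the 5-month difference was -0.0697 residues (exact permutation p = 0.0896). The V and J bases kept rest on the positions that chose the members, so their values over time are descriptions only as well. In V bases kept, the differences from 1.5 months were -0.0454, -0.0241 and 0.0434 at 3, 5 and 7 months. The J bases kept were 28.43 and 28.35 at 1.5 months and 28.57, 28.55, 28.68 and 28.46 at 3 months, without overlap between these 2 groups. The difference was 0.180 bases. Leaving out 1 sample at a time, this difference ran from 0.138 to 0.222 bases. It was 0.0306 bases with junctions of exactly 0 bases and 0.0586 with the exact germline match.

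Sequences of zero-insert clonotypes recurred in other samples more often than those with 1 to 5 inserted bases. Per sample, 70.9% ± 2.22 (SD, n = 13) of the zero-insert CDR3 amino-acid sequences were found in at least 1 other sample, in a row of any insert class, against 56.7% ± 3.12. The difference of 14.2 ± 2.04 percentage points had the same direction in 13 of 13 samples. At the nucleotide level, with V and J, the shares were 35.6% ± 3.23 and 20.2% ± 4.75, a difference of 15.4 ± 2.61 points in 13 of 13 samples (exact sign-flip permutation p = 2.44e-04 for both). With possible carry-over removed the differences were 15.1 and 16.4 points, and among CDR3s of 13 residues only they were 12.4 and 19.9 points (exact permutation p = 2.44e-04 each). Counting only rows of the same insert class in the other samples, they were 10.7 and 15.4 points (exact permutation p = 2.44e-04 each). Each zero-insert amino-acid sequence also had more clonotypes within a sample, 1.132 ± 0.0210 against 1.087 ± 0.0107 (exact sign-flip permutation p = 2.44e-04), a difference that turned to -0.0127 for junctions of exactly 0 bases (exact permutation p = 0.0400). The same nucleotides with another V or J segment count as a further clonotype here.

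**Figure D3:**
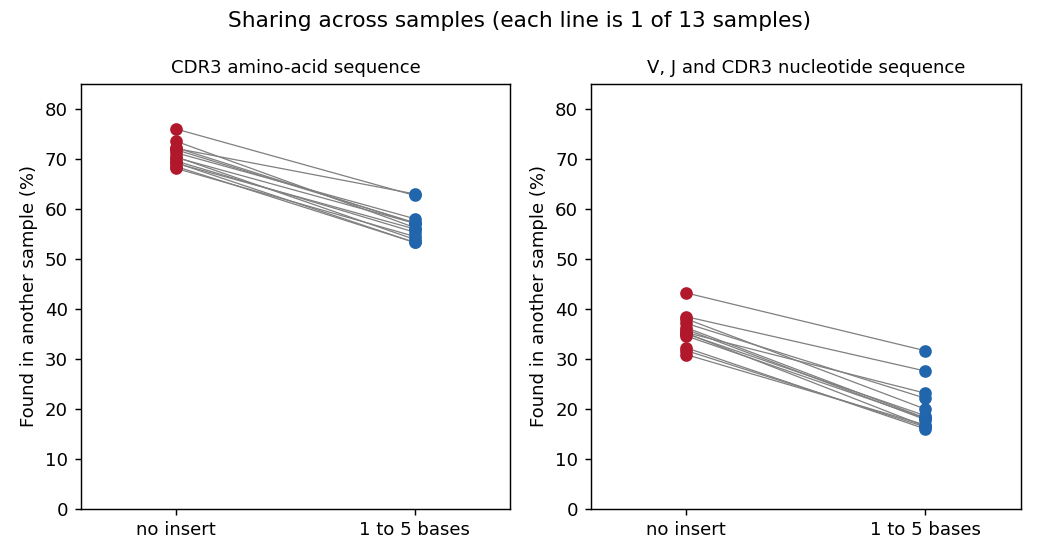
Share (%) of CDR3 amino-acid sequences (left) and of V, J and CDR3 nucleotide sequences (right) that were found in at least 1 other sample, in rows of any insert class, for zero-insert clonotypes (red) and clonotypes with 1 to 5 inserted bases (blue). Each line joins the 2 classes of 1 sample, and all 13 lines fall from left to right in both panels.

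From 1 to 5 inserted bases the mean share of CDR3s found in another sample was lower with each base, and the steps were not tested. The share of CDR3 amino-acid sequences found in another sample was 71.0% ± 2.35 with exactly 0 bases, 70.8% ± 2.44 with 1 base, 64.3% ± 3.42 with 2, 55.6% ± 2.95 with 3, 47.2% ± 4.35 with 4 and 33.5% ± 5.38 with 5 (SD, n = 13). Without possible carry-over it was 68.9% with 0 bases, 69.0% with 1 base, 62.0% with 2 and 28.8% with 5. Against clonotypes with exactly 1 inserted base, zero-insert clonotypes differed by 0.0418 points (exact sign-flip permutation p = 0.923), while their nucleotide sequences were still found in another sample more often, by 7.03 points (p = 2.44e-04). Within the members, the share ran from 65.0% ± 10.7 at 9 overlapping bases to 75.2% ± 4.16 at 1, and these steps were not tested against each other. Members given exactly by the germline were shared more, 25.4 points at the amino-acid and 29.0 points at the nucleotide level above clonotypes that the germline did not match by 1 to 5 bases (exact sign-flip permutation p = 2.44e-04 each).

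**Figure D4:**
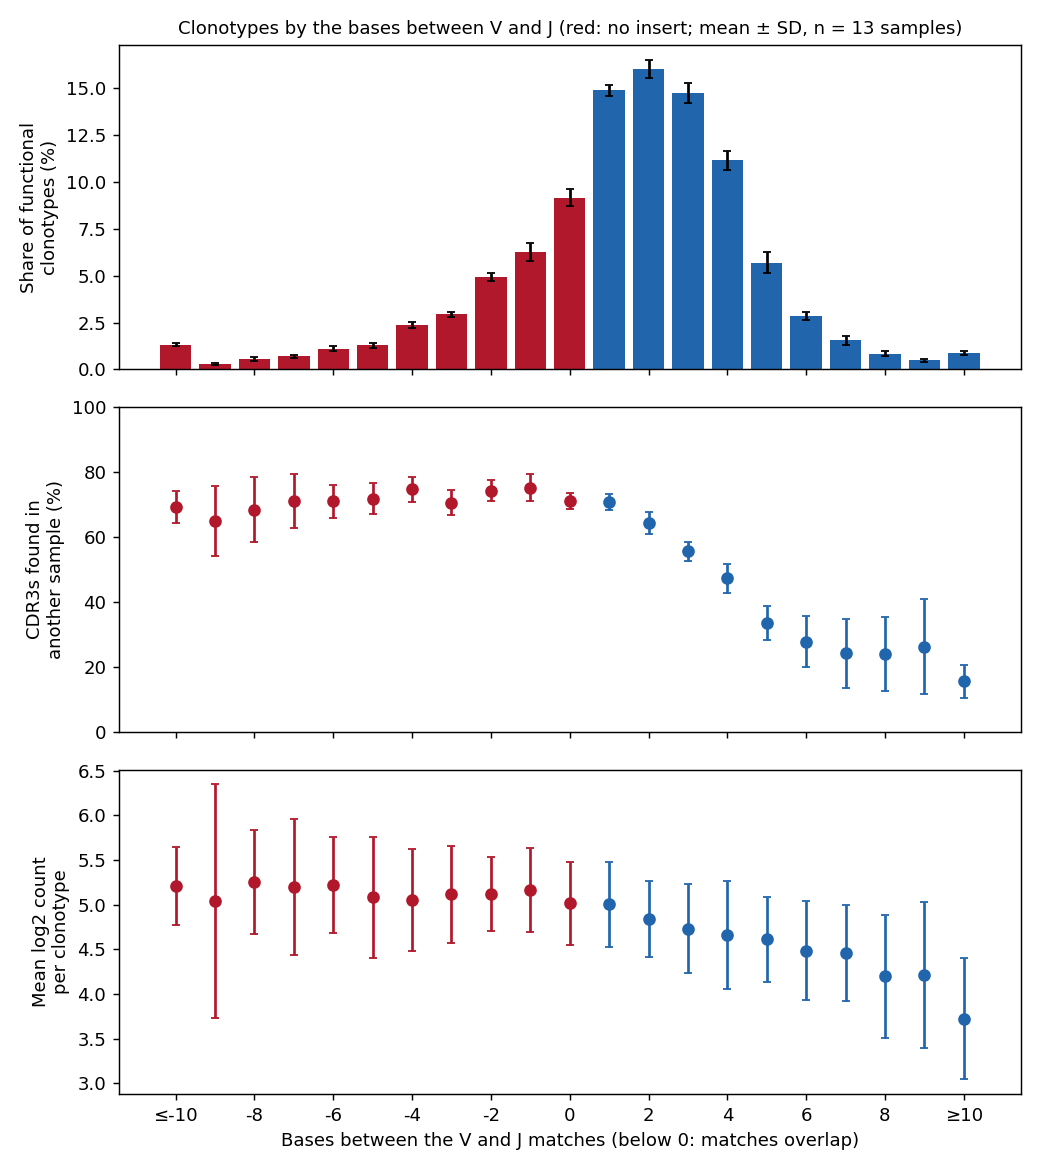
Share of functional clonotypes (top, %), share of CDR3 amino-acid sequences found in another sample (middle, %) and mean log2 count per clonotype (bottom) against the bases between the V and J matches, where values below 0 are overlaps and the end positions hold all more extreme values. Points and bars are means ± SD over 13 samples, with zero-insert clonotypes in red. Sharing lay between 65.0% and 75.2% from overlapping matches to 1 inserted base and was 33.5% at 5 inserted bases.

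Some zero-insert CDR3s were found in every sample. Counting only rows of the same insert class, 7777 of 11546 distinct zero-insert amino-acid sequences (67.4%) were found in 1 sample, 3.81% in 7 or more and 39 in all 13. In the same way, 6 of 29137 sequences with 1 to 5 inserted bases were found in all 13. Those 39 took 2.75% ± 0.574 of functional counts per sample. Counting rows of every insert class, 65 CDR3 amino-acid sequences were found in all 13 samples, and 1404 of their 1994 rows (70.4%) were zero-insert, against 30.8% of all functional clonotypes. No nucleotide clonotype was found in all 13 samples, and the most widespread was in 12 for zero-insert clonotypes and in 10 for those with 1 to 5 bases. Without possible carry-over, 35 zero-insert amino-acid sequences and 6 with 1 to 5 bases were found in all 13 samples, 1260 of 1795 rows (70.2%) of the 58 sequences found in all 13 over every class were zero-insert, and the most widespread zero-insert nucleotide clonotype was in 11 samples.

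Among the 39, the 6 with the highest mean share used 4 J genes. The most abundant nucleotide sequence of each is shown, where it is not among those above, with the bases from the start of the J match in capitals.
TRAV4N-4 and TRAJ12, 12 residues: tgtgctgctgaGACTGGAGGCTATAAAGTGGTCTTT
TRAV7D-2 and TRAJ30, 13 residues: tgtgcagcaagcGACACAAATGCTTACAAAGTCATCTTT
TRAV14D-1 and TRAJ22, 12 residues: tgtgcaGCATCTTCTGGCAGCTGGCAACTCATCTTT

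The 14-residue CDR3 of TRAV14 and TRAJ22, the third of the widespread clonotypes above, took 0.237% ± 0.0413 of functional counts (SD, n = 13). It was the steadiest of the 6, at 0.272% and 0.280% at 1.5 months, 0.274%, 0.243%, 0.195% and 0.257% at 3 months, 0.272% and 0.186% at 5 months and 0.251%, 0.250%, 0.173%, 0.259% and 0.166% at 7 months. This CDR3 was encoded by 11 zero-insert nucleotide sequences, and its course over time was not tested. The 12-residue CDR3 with the same J gene took 0.135% ± 0.0744 and was built from 7 V families and 12 zero-insert nucleotide sequences. The CDR3 of TRAV14 and TRAJ13 took 0.189% ± 0.123, from 0.0559% in the fifth 7-month sample to 0.460% in the second 1.5-month sample. The CDR3 of TRAV7 and TRAJ30 took 0.176% ± 0.135, with a range from 0.00985% to 0.410%.

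The other 2 of the 6 used TRAJ12 and had medians well below their means of 0.222% (TRAV4) and 0.112% (TRAV7). Without possible carry-over each was found in 12 samples. The 12-residue CDR3 of TRAV4, encoded by 2 zero-insert nucleotide sequences, had a median of 0.115% and reached 1.32% in the first 5-month sample. The 13-residue CDR3 of TRAV7, encoded by a single zero-insert nucleotide sequence, had a median of 0.0489% and reached 0.594% in the first 3-month sample. Of all counts of these amino-acid sequences, zero-insert rows held between 92.2% and 99.6%, except for the last with 59.5%.

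Overlap between samples did not follow the time points. The Jaccard index of zero-insert CDR3 amino-acid sequences (shared over all distinct sequences of 2 samples) was 12.5% ± 0.760 for the 18 pairs of samples within a time point and 12.5% ± 1.09 for the 60 pairs between time points (exact permutation p = 0.995). The index of sequences with 1 to 5 inserted bases was 6.61% ± 0.677 and 6.81% ± 1.14. With carry-over removed the difference within minus between time points was -0.110 points for zero-insert sequences (exact permutation p = 0.563). The share of zero-insert sequences found in another sample was 70.2% and 68.4% at 1.5 months, 71.2%, 73.5%, 69.2% and 75.9% at 3 months, 72.0% and 72.2% at 5 months and 71.8%, 68.0%, 69.5%, 69.1% and 70.4% at 7 months. The highest value was that of the fourth 3-month sample, the library that stood apart in overlap, and no difference from 1.5 months passed the test (exact permutation p from 0.206 to 0.984), although p was 0.0490 for 3 months without the third 3-month sample. Without possible carry-over the differences from 1.5 months were 2.47, 2.13 and 0.784 points (exact permutation p = 0.223, 0.426 and 0.887).

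J genes differed in how often they appeared without an insert. With edgeR's quasi-likelihood test on the number of clonotypes per segment, 16 of 43 J genes made up a larger part of zero-insert clonotypes than of clonotypes with 1 to 5 bases (37.2% of those tested) and 11 a smaller part (25.6% of those tested) at an adjusted p under 0.05. With the exact germline match 9 were higher and 8 lower, and with counts summed over clonotypes 2 were higher and 0 lower. The direction differed along the locus. From TRAJ58 to TRAJ41, the end nearest the V segments, 5 of 13 tested genes were higher and 0 lower, from TRAJ40 to TRAJ24 3 of 14 were higher and 8 lower, and from TRAJ23 to TRAJ2 8 of 16 were higher and 3 lower. The median log2 fold changes were 0.12, -0.29 and 0.10. These stretches were set after the values were seen and were not tested.

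Among J genes that passed the test, 4 were higher in all 13 samples, namely TRAJ53, TRAJ7, TRAJ52 and TRAJ12. Their germline 5′ ends up to the last CDR3 codon are shown with the part that the median member kept in capitals, all on the plus strand of chromosome 14 of GRCm38.
TRAJ53, chr14:54162644-54162709: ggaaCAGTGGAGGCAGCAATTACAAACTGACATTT
TRAJ7, chr14:54211470-54211528: gGACTACAGCAACAACAGACTTACTTTG
TRAJ52, chr14:54165316-54165381: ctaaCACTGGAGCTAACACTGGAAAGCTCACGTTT
TRAJ12, chr14:54206553-54206610: gGGACTGGAGGCTATAAAGTGGTCTTT
TRAJ53 made up 1.24% ± 0.195 of zero-insert clonotypes and 0.766% ± 0.182 of those with 1 to 5 bases, a log2 fold change of 0.68 ± 0.13 (SE; edgeR adjusted p = 1.00e-06), and 43.0% ± 5.20 of its functional clonotypes were zero-insert. TRAJ7 rose from 1.46% ± 0.150 to 2.29% ± 0.370 (log2 fold change 0.64 ± 0.09, adjusted p = 3.08e-11), TRAJ52 from 1.33% ± 0.207 to 1.77% ± 0.267 (0.41 ± 0.10, adjusted p = 1.02e-04) and TRAJ12 from 3.78% ± 0.408 to 4.84% ± 0.474 (0.36 ± 0.06, adjusted p = 8.13e-08). With the exact germline match the excess of TRAJ53 was 1.1, while TRAJ7 was at -0.03 and TRAJ12 at -0.16. Against exactly 1 inserted base TRAJ7 still passed, at 0.42 (edgeR adjusted p = 0.00481), while TRAJ12 was at -0.06, TRAJ53 at 0.25 and TRAJ52 at 0.28 (edgeR adjusted p = 0.525, 0.156 and 0.0565). With summed counts TRAJ7 alone of the 4 passed.

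TRAJ24, TRAJ32, TRAJ40 and TRAJ37 were lower in all 13 samples, and their 5′ ends are given in the same way.
TRAJ24, chr14:54195638-54195700: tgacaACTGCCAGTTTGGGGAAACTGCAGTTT
TRAJ32, chr14:54186101-54186166: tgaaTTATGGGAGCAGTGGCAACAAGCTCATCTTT
TRAJ40, chr14:54177921-54177981: gttaATACAGGAAACTACAAATACGTCTTT
TRAJ37, chr14:54181518-54181577: tAACAGGCAATACCGGAAAACTCATCTTT
Between 24.9% and 25.3% of the functional clonotypes of TRAJ32, TRAJ40 and TRAJ37 were zero-insert. Their log2 fold changes were -0.48 ± 0.07, -0.42 ± 0.06 and -0.37 ± 0.06 (SE; edgeR adjusted p = 2.38e-09, 3.01e-09 and 8.80e-08). With the exact germline match the value was -0.07 for TRAJ32 and -0.04 for TRAJ40, and against exactly 1 inserted base it was -0.18 for TRAJ37 (edgeR adjusted p = 0.0873). With summed counts neither these 3 nor TRAJ24 passed (edgeR adjusted p from 0.05004 to 0.680). TRAJ24 had the lowest zero-insert share of its stretch, 10.1% ± 2.82, and a log2 fold change of -0.59 ± 0.17 (edgeR adjusted p = 0.00197). In 84.5% of its 808 functional clonotypes the deposited J match was shorter than the exact match to the GRCm38 segment, by a median of 4 bases, and with the exact match its direction turned, to 0.39 (edgeR adjusted p = 0.0208). TRAJ35, singled out after its values were seen, had the highest log2 fold change of all (0.74 ± 0.11, edgeR adjusted p = 2.38e-09, higher in 11 of 13 samples). While 44.3% ± 10.7 of its functional clonotypes were zero-insert by the deposited positions, the germline gave 7.06% ± 2.08 exactly. Over all functional clonotypes these shares were 30.9% ± 0.967 and 11.7% ± 0.511, so its exact share lay below that of all genes together. With the exact germline match, its excess was only over clonotypes with 1 to 5 unmatched bases (0.61, edgeR adjusted p = 0.0133). By the deposited positions, its excess passed the test against exactly 1 inserted base (0.39, adjusted p = 0.0270) and with 1-base neighbours removed (0.67), and did not pass with summed counts (0.70, adjusted p = 0.237).

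V families also differed in both directions. Families were tested in place of single genes because duplicated mouse Vα genes are near-identical. Of 18 families, 9 made up a larger part of zero-insert clonotypes (50% of those tested) and 4 a smaller part (22.2% of those tested) at an edgeR adjusted p under 0.05. The 9 became 5 without the second 5-month sample and 5 with a minimum of 10 counts, and 1 was higher against exactly 1 inserted base or with summed counts. With the exact germline match 7 were higher and 6 lower. TRAV16 and TRAV4 were higher and TRAV10 and TRAV14 lower in all 13 samples. The germline 3′ ends of the most used gene of each, from the first codon of CDR3, are shown with the part that the median member kept in capitals.
TRAV16D-DV11, chr14:53047287-53047821: TGTGCTATGAGAGAGGg
TRAV4D-4, chr14:52990866-52991389: TGTGCTGCTGAGg
TRAV10, chr14:53505727-53506286: TGTGCAGCAAGCA
TRAV14D-1, chr14:52855614-52856166: TGTGCAGCAAGTg
TRAV16 rose from 2.40% ± 0.212 of clonotypes with 1 to 5 bases to 3.20% ± 0.425 of zero-insert clonotypes, a log2 fold change of 0.38 ± 0.08 (SE; edgeR adjusted p = 1.63e-05). It has the longest of these germline ends, 17 bases, and its zero-insert CDR3s averaged 14.4 residues. TRAV4 rose from 9.73% ± 0.742 to 11.2% ± 0.801 (0.17 ± 0.04, edgeR adjusted p = 1.19e-04). TRAV10 fell from 2.52% ± 0.353 to 1.72% ± 0.345 (-0.60 ± 0.09, edgeR adjusted p = 6.17e-09) and TRAV14 from 15.5% ± 0.522 to 14.2% ± 0.535 (-0.16 ± 0.03, edgeR adjusted p = 1.01e-05). Against exactly 1 inserted base none of the 4 passed the test, with log2 fold changes of 0.05, 0.13, -0.29 and -0.11 and edgeR adjusted p from 0.0571 to 0.604. With summed counts TRAV16 and TRAV14 did not pass (edgeR adjusted p = 0.356 and 0.975).

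**Figure D5:**
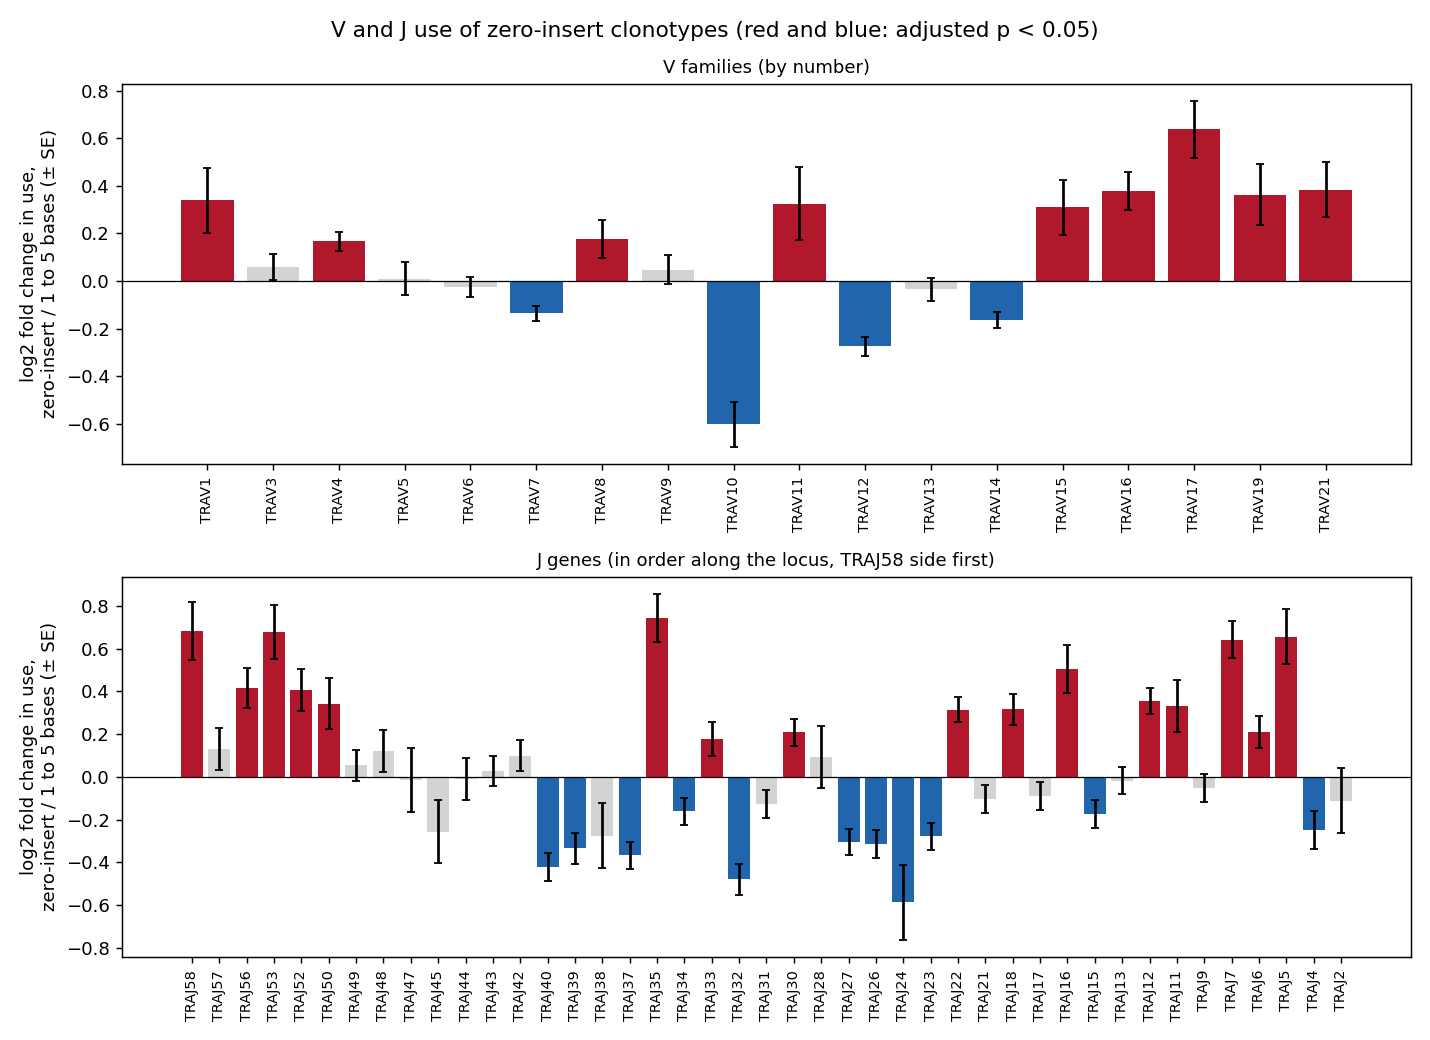
log2 fold change in use (± SE) of zero-insert clonotypes against clonotypes with 1 to 5 inserted bases, for 18 V families by number (top) and 43 J genes in order along the locus (bottom). Red and blue bars are higher and lower at an edgeR adjusted p under 0.05, and grey bars did not pass. Most blue J genes lie between TRAJ40 and TRAJ23.

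Zero-insert clonotypes used many V and J pairs without a dominant one. They held 740 pairs of V family and J gene, and the 10 most frequent pairs together took 9.33% of them. TRAV7 with TRAJ15 took 1.15% ± 0.342, TRAV7 with TRAJ21 1.07% ± 0.315 and TRAV7 with TRAJ12 0.970% ± 0.234 (SD, n = 13). The last was higher than among clonotypes with 1 to 5 bases (0.680% ± 0.146) in 11 of 13 samples, and the first was higher in 4 of 13.

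V and J use of zero-insert clonotypes did not change detectably over time, except for 1 V family under each of 2 alternatives. In edgeR's test of the number of zero-insert clonotypes, 0 of 19 V families and 0 of 42 J genes passed an adjusted p of 0.05 at 3, 5 or 7 months against 1.5 months (0% called in each). At an unadjusted p under 0.05, 1, 1 and 3 V families and 2, 1 and 2 J genes were found at the 3 time points. DESeq2 called 0 in each comparison too. TRAV9 passed at 3 months with 1-base neighbours removed (0.44 ± 0.14, edgeR adjusted p = 0.0467), and TRAV1 at 7 months with the replicate number as a block (1.01 ± 0.30, edgeR adjusted p = 0.0412, against 0.53 ± 0.34 and adjusted p = 0.446 without it). The J genes with the smallest p were TRAJ33 at 3 months (log2 fold change 0.45 ± 0.17, adjusted p = 0.651) and TRAJ21 at 5 months (-0.36 ± 0.13, adjusted p = 0.608) and 7 months (-0.23 ± 0.10, adjusted p = 0.885). Among V families they were TRAV9 at 3 months (0.36 ± 0.14, adjusted p = 0.239), TRAV5 at 5 months (-0.42 ± 0.20, adjusted p = 0.590) and TRAV16 at 7 months (0.40 ± 0.18, adjusted p = 0.310).

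The zero-insert share was also compared between functional and out-of-frame clonotypes, whose α chain makes no receptor. It was 30.9% ± 0.967 of functional and 29.2% ± 1.83 of the 11387 out-of-frame clonotypes (690 to 1111 per sample). The difference of 1.67 ± 1.98 percentage points (SD, n = 13) was positive in 9 of 13 samples (exact sign-flip permutation p = 0.0105). It fell to 0.641 points with 1-base neighbours removed (exact permutation p = 0.252).

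The share of junctions given by the exact germline match was also followed over time. Clonotypes that the germline gave whole were 11.3% and 11.6% of functional clonotypes at 1.5 months, 11.5%, 11.1%, 11.1% and 11% at 3 months, 11.8% and 12.4% at 5 months, and 11.8%, 11.9%, 11.6%, 12.5% and 12.4% at 7 months. All 5- and 7-month samples lay above all earlier ones, at the closest 11.64% in the third 7-month against 11.59% in the second 1.5-month sample. This split into early and late samples was not tested. The exact-match share was not checked at equal depth, while functional clonotypes per sample averaged 7247.5 at 1.5 and 5643 at 7 months. The correlation with months gave Pearson's r = 0.688 (100000 permutations, p = 0.0115, adjusted p = 0.0802 over 7 trends) and Spearman's rho = 0.734 (permutation p = 0.00617, adjusted p = 0.0432), and r was 0.728 (permutation p = 0.0153) without both 1.5-month samples. For the deposited positions r was 0.243 (permutation p = 0.421), and the difference between the 2 correlations was not tested.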

How the data were processed

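TCRα cDNA from 13 samples of sorted, rescued Treg cells was sequenced, and the titles gave the time points. The authors amplified cDNA by 5′ RACE, sequenced it on an Illumina MiSeq, assembled clonotypes with MiXCR and corrected them by frequency with VDJtools, which drops a much smaller clonotype within a few mismatches of a larger one. The submitters' processing notes name GRCm38. Each deposited table gave a raw count per clonotype, its share of the sample as a fraction (not used in any test) and the V end and J start positions. Whether a count is a read or a molecule is not stated in the sources used here.

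Of 90369 clonotypes, 78521 were functional. Measures were computed with Python 3.11.15, numpy 2.4.6, pandas 2.3.3 and scipy 1.17.1. Time points were compared with 1.5 months by the pooled-spread statistic of the study's Dunnett comparisons, with exact p-values from all 540540 arrangements and the maximum over 3 comparisons as correction. Classes within a sample were compared by exact sign-flip permutation (8192 flips), and V and J use by edgeR 4.0.16 in R 4.3.3 (filterByExpr, TMM, quasi-likelihood F test, Benjamini-Hochberg adjustment). DESeq2 1.42.0 was an alternative. Figures were drawn with matplotlib 3.10.9. Each time point reuses the same replicate numbers and no label ties those samples together, so the designs have no replicate block.

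The members and lists were chosen with earlier results of these data known. Named segments were those with adjusted p under 0.05 and the same direction in all 13 samples, up to 4 V families and 5 J genes per direction by log2 fold change. Named clonotypes were the largest of each time point, the 6 zero-insert and 3 others found in the most samples, and the 6 zero-insert CDR3s with the highest mean share among those found in all samples. Germline segments and positions came from GENCODE M21. Removing 1-base neighbours, and exact germline matching in the class, usage and out-of-frame comparisons, and removing carry-over from sharing over time, by inserted bases and in numbers of samples, were chosen after seeing the data. On simulated data without differences, 6% of 200 series gave a corrected p under 0.05 for time points, and a shift of 3 SD at 7 months was found in 79%. The class comparison called 8% of 200 series without a difference and 100% with a shift of 1.5 SD. Of 5 simulated 1.5-fold changes among 43 J genes, edgeR found 98%, with 0.6 false calls per run.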

Additional observations from a re-analysis of the deposited data

How the results depend on the processing

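Of 578 alternative values (leaving out samples aside), 491 kept their direction and their side of the threshold, among them the larger clone size and more frequent sharing at the nucleotide level under every alternative run for them, although their size moved by over 1.5 times under some. The 578 include values of CDR3 length and of V and J bases kept, which are descriptions only. The tally is therefore no measure of how firm the tested results are. The shorter CDR3, given as a description, kept its direction under every alternative run for it, and its size also moved by over 1.5 times under some. Results that moved are given here or beside the result, and the cause was not tested. Depth limits the values near the floor, and with 2 samples at 1.5 and at 5 months a two-sided comparison of these groups alone can reach no p below 0.333.

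Counting only junctions of exactly 0 bases gave differences from 1.5 months of -0.829 points in the share of clonotypes (p = 0.0295, exact permutation) and -3.13 points in the share of counts (p = 0.0478) at 3 months and -0.512 points in the share of clonotypes at 7 months. In residues the length differences were -0.0178 at 3 months, -0.0697 at 5 months and -0.0174 at 7 months, in bases kept from J they were 0.0306, -0.132 and -0.0296 at 3, 5 and 7 months, and in V bases at 7 months -0.0225. The trends were r = -0.400 for the clone size ratio and -0.0585 for the share of clonotypes. The number of clonotypes per amino-acid sequence differed by -0.0127.

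With the exact germline match the J bases differed by 0.0586 at 3 months, the V bases by -0.0475 at 7 months and the length by -0.0133 residues at 3 months and 0.00300 at 5 months. The trends were r = -0.522 for the clone size ratio, 0.185 for length, 0.351 for J bases, -0.0914 for V bases and 0.688 for the share of clonotypes. Instead of 16, 9 J genes were higher, and the log2 fold change was -0.16 for TRAJ12, 0.39 for TRAJ24 and -0.0270 for TRAJ7.

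A minimum of 2 counts gave length differences of -0.00752 and -0.00363 residues at 3 and 7 months, a difference of -0.275 points in the share of clonotypes at 7 months, a J base trend of r = 0.0302 and a Gini difference of 0.0198. A minimum of 10 counts gave length differences of -0.0142 and -0.00250 residues, a share of clonotypes of -0.406 points at 7 months, trends of r = 0.0650 for length, 0.0822 for sharing and 0.101 for J bases, a Gini difference of 0.0257 and 5 V families that were higher. At equal depth the 7-month share of clonotypes differed by -0.0757 points and the length trend was r = 0.0281.

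Against exactly 1 inserted base, sharing differed by 0.0418 points, the Gini coefficient by 0.0170 and the SD of length by 0.00677 residues, 1 V family was higher and 1 lower, and on the log2 scale TRAJ12 was at -0.0625, and TRAJ37 and TRAJ52 no longer passed, at -0.179 and 0.280. Against 1 or more inserted bases the SD of length differed by -0.125. With CDR3s of 13 residues the Gini difference was -0.0185. With 1-base neighbours removed the 7-month length differed by -0.00788 residues, the SD of length between classes by 0.0117, and the functional share by 0.641 points from the out-of-frame share, and 1 V family changed at 3 months. Against in-frame clonotypes with a stop codon the functional share was 4.79 points higher (exact permutation p = 0.125).

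With counts summed over clonotypes in place of numbers of clonotypes, 2 J genes were higher and 0 lower, 1 V family was higher and 2 lower, and TRAV14 was at 0.0038. With single V genes, 10 were lower. The Morisita-Horn index within minus between time points was -1.50 points, and the Jaccard difference with carry-over removed was -0.110. With only the 2 groups compared permuted, the 7-month clone size ratio (-0.18) and share of counts (-2.58 points) had p = 0.0476 by exact permutation. That is the smallest p that those 21 arrangements can give. In the same setting the 3-month J bases differed by 0.180. This value is a description only, because the J start position chose the members.

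Same-numbered samples deviated together in some measures (r over 14 pairs from -0.285 for the share of clonotypes to 0.636 for the clone size ratio), and the number has no stated meaning. When the number was fitted as a replicate block, length differed by -0.00414 and -0.0163 residues at 3 and 7 months, the V bases by -0.0109 and the share of clonotypes by -0.400 points at 7 months, and 1 V family changed at 7 months. The block changed no other call.

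When each sample was left out in turn, the difference from 1.5 months in the share of clonotypes ran from -0.272 to 1.33 points at 5 months and from -0.798 to 0.808 at 7 months, in length from -0.0153 to 0.0210 residues at 3 months, -0.0159 to 0.00916 at 5 months and -0.0106 to 0.0144 at 7 months, in sharing from 1.95 to 4.20 points at 3 months and -0.464 to 1.33 at 7 months, and in J bases at 3 months from 0.138 to 0.222. The 7-month log2 clone size ratio ran from -0.27 to -0.10. Trends ran from -0.703 to -0.527 for the clone size ratio, -0.153 to 0.219 for length and -0.351 to 0.0929 for J bases. For the share of counts they ran from -0.583, without the second 3-month sample, to -0.244. The Jaccard difference ran from -0.213 to 0.128 points, the SD of length between classes from -0.00598 to 0.00120, and the V families that were higher from 5 to 9, with 5 without the second 5-month sample.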
